A study of Felis catus with 2 samples.

Results

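Keratins, the proteins of desmosomes and the claudins give an epithelial cell its internal scaffold of intermediate filaments and the junctions that join it to its neighbours. They were taken from the deposited table by gene symbol. Every row that carries a single name beginning with KRT, DSG, DSC, PKP or CLDN and a digit, or the name DSP, was used, apart from CLDN5, which marks vascular endothelium. This gave 62 genes out of 32065 loci, namely 36 keratins, 11 desmosome proteins and 15 claudins. CLDN12 stands on 2 rows, of which the one with the higher mean was used.

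The RNA came from 2 libraries, 1 of a cat labelled normal and 1 of a cat labelled with primary congenital glaucoma (PCG). Both cats were 2 months old and unrelated to each other, and the affected cat belonged to a colony that segregates a frameshift insertion in LTBP2. The tissue was dissected around the iridocorneal angle and took in ciliary body, trabecular meshwork and neighbouring sclera. Neither cornea nor conjunctiva is named in that description. Disease, family and dissection cannot be told apart with 1 library per condition, so no difference was tested, and all values describe these 2 libraries. In RNA from a piece of tissue, fewer cells of a type and less RNA per cell cannot be told apart either.

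Values are FPKM (fragments per kilobase of transcript, scaled to 1000000 fragments), a level scaled by transcript length, so genes can be compared within a library. A level of 1 fragment on each kilobase of transcript corresponded to 0.0141 FPKM in the normal cat and 0.0148 FPKM in the affected cat. Intervals given with ratios are 95% intervals calculated for 1 kilobase of effective transcript length. They cover counting error only and not the variation between cats or dissections. Where a gene is followed by 2 levels with no library named, the normal cat comes before the affected cat.

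Keratin filaments are built from pairs, in which a type II keratin joins a type I keratin. Differentiated corneal epithelium is known for the pair KRT3 and KRT12, the basal layer of stratified epithelia for KRT5 and KRT14, and the upper layers of conjunctival and other mucosal epithelia for KRT4 and KRT13. Epithelia of a single cell layer use KRT8, KRT18, KRT7 and KRT19, and the last 2 are also made by conjunctiva. Desmosomes anchor these filaments at cell contacts through the cadherins DSG and DSC, the plakophilins PKP and the linker desmoplakin, DSP. Claudins form the strands of tight junctions, and some seal the path between cells while others open it to ions.

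Of the 62 genes, 31 reached 1 FPKM in at least 1 library. Of these, 16 were at least 2-fold lower in the affected library on the scale of log2(FPKM + 1), or 51.6%, where 8.75% of all 16676 loci past the same minimum were that much lower. Another 4 genes were at least 2-fold higher, or 12.9%, against 8.14% of all loci. The median log2 ratio, affected over normal, was −1.001 for the 31 genes and −0.0047 for all loci. A gene can pass the minimum through the library in which it is high alone. This was so for 8 genes that reached 1 FPKM only in the normal and 2 that reached it only in the affected library. Among the 21 genes with at least 1 FPKM in both libraries, 9 were at least 2-fold lower and 2 at least 2-fold higher, or 42.9% and 9.52%. Over all 14184 loci with at least 1 FPKM in both, the shares were 6.07% and 6.42%. The share of lower genes was thus above that of all loci in this subset too.

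The corneal pair was the most unequal of the keratins. KRT12, the type I keratin of corneal epithelium, was listed at 299.1 FPKM in the normal cat and 3.27 FPKM in the affected cat. Its level in the normal library exceeded 98.4% of the loci used, and its level in the affected library 28.7% of them. The normal value was 91.5 times the affected one (80.1 to 104.4). KRT3, the type II partner, was listed at 76.5 and 1.78 FPKM, a 43.0-fold difference (35.9 to 51.6). Both genes of the pair were thus high in 1 library and low in the other, and KRT12 differed more than KRT3. The level of KRT12 was 3.91 times that of KRT3 in the normal library (3.80 to 4.03) and 1.84 times in the affected one (1.47 to 2.30).

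The keratins of the basal layer were lower as well, by a smaller factor. KRT5, the type II keratin of basal cells, was listed at 106.2 FPKM in the normal cat and 5.76 FPKM in the affected cat, an 18.4-fold difference (16.6 to 20.4). Its partner KRT14 was listed at 5.77 and 0.806 FPKM, a 7.16-fold difference (5.39 to 9.49). KRT14 was the minor member of the pair in both libraries, with KRT5 at 18.4 times its level in the normal cat and 7.15 times in the affected cat. KRT14 shares its listed span on chromosome E1, 42292890 to 42380820, with KRT19, KRT9, an unnamed locus and a row that joins KRT15 with KRT16. How fragments were divided among these 5 loci was not tested. KRT17, a basal keratin of hair follicles and stressed epidermis, stayed below 1 FPKM at 0.886 and 0.254 FPKM, and KRT24 at 0.414 and 0.292 FPKM.

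The conjunctival pair differed less than the corneal pair. KRT13, the type I keratin of mucosal upper layers, was listed at 68.4 FPKM in the normal cat and 8.71 FPKM in the affected cat, a 7.85-fold difference (7.21 to 8.56). KRT4, its type II partner, was listed at 28.7 and 3.42 FPKM, an 8.41-fold difference (7.34 to 9.63). The 2 partners therefore differed between the libraries by nearly the same factor, and their intervals overlap. KRT13 stood at 2.38 times the level of KRT4 in the normal (2.26 to 2.51) and 2.55 times in the affected library (2.19 to 2.97).

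**Figure D1:**
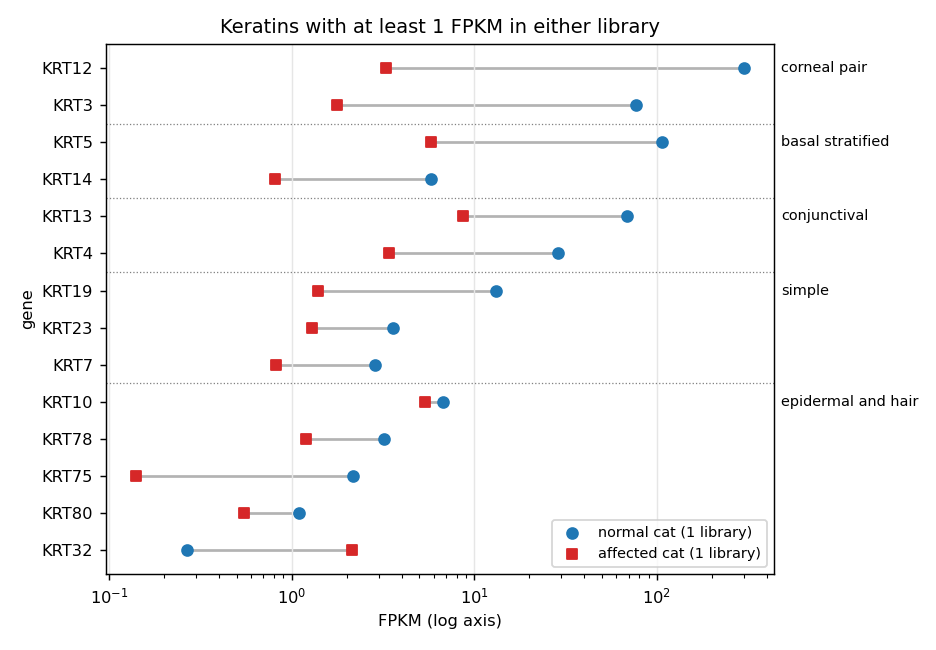
FPKM (log axis) of the 14 keratins with at least 1 FPKM in either library, grouped by the epithelium they are known for, with a blue circle for the normal and a red square for the affected cat. KRT12 spans 299.1 to 3.27 FPKM, KRT10 stands at nearly the same level in both, and KRT32 is the gene whose affected value is the higher one.

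The ratio of corneal to conjunctival keratins does not depend on the scaling between the libraries. KRT12 stood at 4.37 times the level of KRT13 in the normal library (4.24 to 4.51) and at 0.375 times in the affected one (0.322 to 0.438), an 11.7-fold shift (9.95 to 13.6). The type II genes shifted the same way. KRT3 stood at 2.66 times the level of KRT4 in the normal library (2.53 to 2.80) and at 0.520 times in the affected one (0.417 to 0.648), a 5.12-fold shift (4.08 to 6.42). In the normal library the corneal keratin of each type was above the conjunctival one, and in the affected library it was below it. KRT5, which both epithelia use, lay between KRT12 and KRT13 in each library and above both KRT3 and KRT4. KRT12 moved from 2.82 to 0.567 times the level of KRT5, and KRT13 from 0.644 to 1.51 times.

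The same shift is visible in the make-up of the keratin signal. The 36 keratins summed to 620.9 FPKM in the normal cat and 38.8 FPKM in the affected cat, a 16.0-fold difference. KRT3 and KRT12 together held 60.5% of the sum in the normal cat and 13.0% in the affected library. KRT4 and KRT13 held 15.6% and 31.3%, while KRT5 and KRT14 held 18.03% and 17.0%. The remaining keratins outside these groups and the simple keratins made up 2.69% and 29.6%, where KRT10 was the main contributor in the affected library with 13.9%. The sum leaves out a row that joins KRT15 with KRT16, at 86.1 and 9.15 FPKM, with which the difference was 14.8-fold and the corneal pair held 53.1% and 10.5%. It also leaves out KRT8, KRT18 and the KRT6 genes, which were not matched to a row by name. Between KRT78 and EIF4B the table lists 2 loci with an identifier alone, at 120.3 and 161.6 FPKM and at 13.9 and 14.7 FPKM. In the RefSeq annotation of F.catus_Fca126_mat1.0, another assembly, KRT8 and KRT18 are the protein-coding genes between KRT78 and EIF4B, so these loci may be keratins. With both loci added to the 36 keratins, the sums were 755.0 and 215.0 FPKM, a 3.51-fold difference, the corneal pair held 49.7% and 2.35% and the conjunctival pair 12.9% and 5.64%. The fold and the shares of the sum therefore hold for the keratins matched by name.

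**Figure D2:**
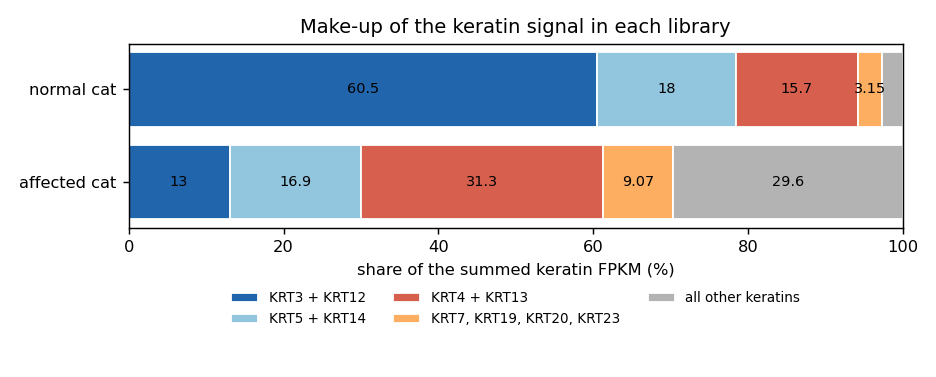
Share of the summed FPKM of the 36 keratins (percent) taken by the corneal pair, KRT5 with KRT14, the conjunctival pair, the simple keratins and all others, with 1 bar for each library. The corneal pair takes 60.5% in the normal and 13.0% in the affected cat.

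The order of the keratins matched by a single name differed between the libraries. The joined row of KRT15 and KRT16 and the unnamed loci beyond KRT78 are not in this order, and in the affected library the joined row and both unnamed loci were above KRT13. In the normal library it ran from KRT12 through KRT5, KRT3, KRT13, KRT4 and KRT19 to KRT10, and the counting intervals of neighbours in this stretch did not overlap. Below it, KRT10 and KRT14 overlapped, and so did neighbours among KRT23, KRT78, KRT7 and KRT75. In the affected library KRT13 came first, and KRT5 at 5.76 FPKM (5.19 to 6.33) and KRT10 at 5.37 FPKM (4.82 to 5.92) could not be ordered by counting error. KRT4 and KRT12 overlapped in the same way, and neighbours overlapped all along the stretch from KRT32 through KRT3, KRT19 and KRT23 to KRT78.

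Of the simple keratins matched by name, KRT7, KRT19 and KRT23 passed 1 FPKM and were lower in the affected library by unequal factors. KRT8 and KRT18 are not among them, and the unnamed loci that may hold them were not lower. KRT19, the smallest keratin and common in ducts and conjunctiva, was listed at 13.1 FPKM in the normal cat and 1.40 FPKM in the affected cat, a 9.36-fold difference (7.57 to 11.6). KRT7, a keratin of simple and glandular epithelia, was listed at 2.87 and 0.824 FPKM, a 3.48-fold difference (2.59 to 4.69). KRT23 was listed at 3.59 and 1.29 FPKM, with a log2 ratio of −1.001 that sits at the 2-fold limit. KRT19 thus differed by a factor close to that of the conjunctival pair, and the intervals of KRT7 and KRT23 lie below it. KRT20, a keratin of gut and urinary tract epithelium, was at 0.0097 FPKM in the normal library and listed at 0 in the affected one.

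Among the 24 epidermal and hair keratins, 19 stayed below 1 FPKM in both libraries, and 4 of these, KRT1, KRT26, KRT71 and KRT82, were listed at 0 in both. The highest value among the 19 was 0.753 FPKM, that of KRT77 in the normal library. KRT10, the type I keratin of suprabasal epidermis, was listed at 6.70 FPKM in the normal cat and 5.37 FPKM in the affected cat, and its type II partner KRT1 at 0 in both. KRT10 was therefore the keratin with the most similar levels among those past 1 FPKM. KRT78 was listed at 3.18 and 1.20 FPKM, and KRT80 at 1.10 and 0.548 FPKM. KRT75, known from the companion layer of the hair follicle, was listed at 2.16 and 0.141 FPKM, a 15.3-fold difference (7.95 to 29.4).

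A single keratin past 1 FPKM was higher in the affected library. KRT32, a type I keratin of the hair cuticle, was listed at 0.266 FPKM in the normal cat and 2.14 FPKM in the affected cat, an 8.06-fold difference (4.99 to 13.0). Its neighbour on chromosome E1, the hair keratin KRT35, was listed at 0.348 and 0.724 FPKM, below the minimum in both. KRT36 and KRT39, also hair keratins of that chromosome, were at most 0.0295 FPKM, the value of KRT39 in the affected cat. KRT40, near KRT39 on the same chromosome, was listed at 0.4645 and 0.3447 FPKM.

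The keratins lie in 2 clusters in felCat5, the assembly to which the reads were aligned. The 18 type II genes lie on chromosome B4 from 81147822 to 81797262, a stretch of 649 kilobases from KRT80 to KRT78. The 18 type I genes lie on chromosome E1 from 41551645 to 42392927, a stretch of 841 kilobases from KRT24 to KRT17. KRT3 (81710774 to 81716483) and KRT4 (81728498 to 81734774) are neighbours on B4, and KRT76 next to KRT3 was at most 0.0527 FPKM. On E1, KRT12 (41691356 to 41696781) stands between KRT10 and KRT20, of which KRT10 was nearly level and KRT20 near 0. Neighbours within a cluster thus differed in level and in ratio. In each cluster 7 genes passed 1 FPKM and 5 of these were at least 2-fold lower, where 8.75% of all loci were. Of the genes counted as lower, KRT7 and KRT75 on B4 and KRT14 on E1 passed the minimum through the normal library alone.

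The type II genes summed to 221.7 FPKM in the normal cat and 13.9 FPKM in the affected cat, and the type I genes to 399.2 and 24.8 FPKM. The type II sum was 0.555 of the type I sum in the normal cat and 0.563 of it in the affected library. With the joined row of KRT15 and KRT16 counted as type I, these ratios were 0.457 and 0.411. Over the keratins matched by name, the type II sum was 15.9-fold and the type I sum 16.1-fold lower, and the unnamed loci beyond KRT78, which are in neither sum, would change this.

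Desmosome proteins differed between the libraries by unequal factors. Of 11 genes, 10 passed 1 FPKM, 5 of them were at least 2-fold lower and none was at least 2-fold higher, where 8.75% and 8.14% of all loci were. Of the 5, DSG1, DSG3, PKP1 and PKP3 passed the minimum through the normal library alone. Among the 6 genes with 1 FPKM in both libraries, 1 was at least 2-fold lower, DSC3, where 6.07% of all such loci were. The median log2 ratio of the 10 was −0.73. DSG4, a cadherin of hair and upper epidermis, was listed at 0 in both libraries.

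The desmogleins of stratified epithelium were both lower in the affected library. DSG1, of the upper layers, was listed at 3.92 FPKM in the normal cat and 0.0383 FPKM in the affected cat, a 102.4-fold difference. The interval is wide, 30.1 to 348.1, because the affected value corresponds to 2.6 fragments on each kilobase. DSG3, of the deeper layers and mucosa, was listed at 1.68 and 0.0796 FPKM, a 21.1-fold difference (8.88 to 50.0). DSG2, the desmoglein that simple epithelia and many other cells carry, was listed at 23.1 and 28.0 FPKM, and the affected value was 1.21 times the normal one (1.13 to 1.30). DSG2 stood at 5.89 times the level of DSG1 in the normal library (5.19 to 6.69) and 730.8 times in the affected one (216.5 to 2466).

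The desmocollins followed a less clear pattern. DSC2, the widely expressed desmocollin, was the highest of all 62 genes in the affected library, at 58.7 FPKM against 76.0 FPKM in the normal one. DSC3, of basal stratified epithelium, was listed at 5.65 FPKM in the normal cat and 2.12 FPKM in the affected cat, a 2.67-fold difference (2.20 to 3.23). DSC1, of differentiated epidermis, went the other way with 1.07 and 1.89 FPKM, and the affected value was 1.76 times the normal one (1.33 to 2.34). Among the stratified desmosome genes past 1 FPKM, DSC1 was the one that did not stand lower in the affected library.

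Among the plakophilins, which connect the cadherins to desmoplakin inside the cell, PKP1 and PKP3 were lower in the affected library and PKP2 was near level. PKP1, of suprabasal stratified cells, was listed at 6.93 FPKM in the normal cat and 0.513 FPKM in the affected cat, a 13.5-fold difference (9.57 to 19.0). PKP3 was listed at 2.71 and 0.261 FPKM, a 10.4-fold difference (6.38 to 16.9). PKP2, of simple epithelia and heart, was listed at 6.54 and 7.37 FPKM, and the interval of its ratio, 0.993 to 1.28, includes 1. PKP1 and PKP2 were at similar levels in the normal library, with a ratio of PKP2 to PKP1 of 0.944, and far apart in the affected library, with a ratio of 14.4 (10.2 to 20.3).

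DSP, the linker that all desmosomes use, was listed at 10.9 FPKM in the normal cat and 8.32 FPKM in the affected cat, a 1.32-fold difference (1.18 to 1.47). Its listed span on chromosome B2 is shared with 2 other loci. The desmosomal cadherins lie together on chromosome D3 from 54084443 to 54619028, 7 genes in 535 kilobases. Within this stretch DSG3 was far lower in the affected cat, while its neighbour DSG2, at 54581421 to 54619028, was slightly higher. DSG3 shares its listed span with an identifier listed at 0 in both libraries.

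**Figure D3:**
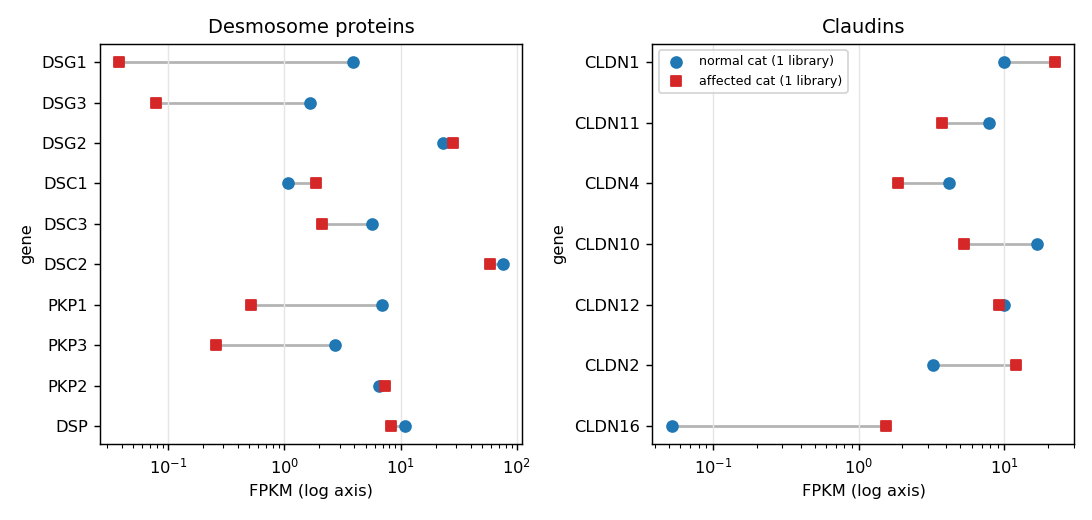
FPKM (log axis) of the 10 desmosome proteins (left) and 7 claudins (right) with at least 1 FPKM in either library, with a blue circle for the normal and a red square for the affected cat. DSG1, DSG3, PKP1 and PKP3 are far lower in the affected cat while DSG2, PKP2 and DSP are near level, and CLDN1, CLDN2 and CLDN16 are higher in the affected cat.

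Claudins differed between the libraries in both directions. Of 15 genes, 7 passed 1 FPKM, 3 of them were at least 2-fold higher and 1 was at least 2-fold lower, where 8.14% and 8.75% of all loci were. With a pseudocount of 0.1 the counts were 3 and 3, since CLDN4 and CLDN11 then passed 2-fold. Of the 3 higher genes, CLDN16 passed the minimum through the affected library alone. The summed claudin level was 52.6 FPKM in the normal cat and 56.3 FPKM in the affected cat. The median log2 ratio of the 7 genes was −0.12, and it was 1.10 without CLDN4 and CLDN12, which share their listed spans with other rows. CLDN17, CLDN18 and CLDN25 were listed at 0 in both libraries.

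Among the sealing claudins, CLDN1 was the higher one in the affected library. CLDN1, which makes the skin barrier and is widespread in epithelia, was listed at 9.88 FPKM in the normal cat and 22.4 FPKM in the affected cat, a 2.27-fold difference (2.07 to 2.48). CLDN4, a sealing claudin of mucosal epithelia, was listed at 4.17 FPKM in the normal cat and 1.88 FPKM in the affected cat. CLDN11, the claudin of myelin sheaths and of the testis barrier, was listed at 7.89 and 3.73 FPKM. CLDN4 and CLDN11 were each more than 2-fold lower as a plain ratio, 2.22-fold (1.80 to 2.73) and 2.12-fold (1.82 to 2.45), and short of 2-fold on the log2(FPKM + 1) scale. Of the 4 genes past 1 FPKM in the myelin list, which holds CLDN11, 2 were at least 2-fold lower and 1 at least 2-fold higher, MBP with 25.0 and 58.8 FPKM, where 8.75% and 8.14% of all loci were. Their part in the value of CLDN11 was not tested.

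The channel-forming claudins differed in opposite directions. CLDN2, which forms a pore for sodium and water in leaky epithelia, was listed at 3.22 FPKM in the normal cat and 12.0 FPKM in the affected cat, a 3.73-fold difference (3.22 to 4.32). CLDN10, which forms ion channels between cells, was listed at 16.7 FPKM in the normal cat and 5.32 FPKM in the affected cat, a 3.13-fold difference in the other direction (2.78 to 3.52). CLDN2 therefore stood at 0.193 times the level of CLDN10 in the normal library (0.168 to 0.222) and 2.26 times in the affected one (1.99 to 2.56). The leading channel claudin was CLDN10 in the normal and CLDN2 in the affected cat.

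CLDN16, known for the recovery of magnesium and calcium in the kidney, was listed at 0.0522 FPKM in the normal cat and 1.54 FPKM in the affected cat. The ratio was 29.5, with an interval of 10.5 to 82.99 that is wide because the normal value corresponds to 3.7 fragments on each kilobase. CLDN16 and CLDN1 lie close together on chromosome C2, at 80138755 to 80164407 and at 80241787 to 80258175, and both were higher in the affected library. CLDN12, which is broadly expressed, was nearly level at 10.0 and 9.15 FPKM, with a ratio interval of 0.821 to 1.02. The 8 claudins below the minimum reached at most 0.417 FPKM, the value of CLDN8 in the normal library.

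**Figure D4:**
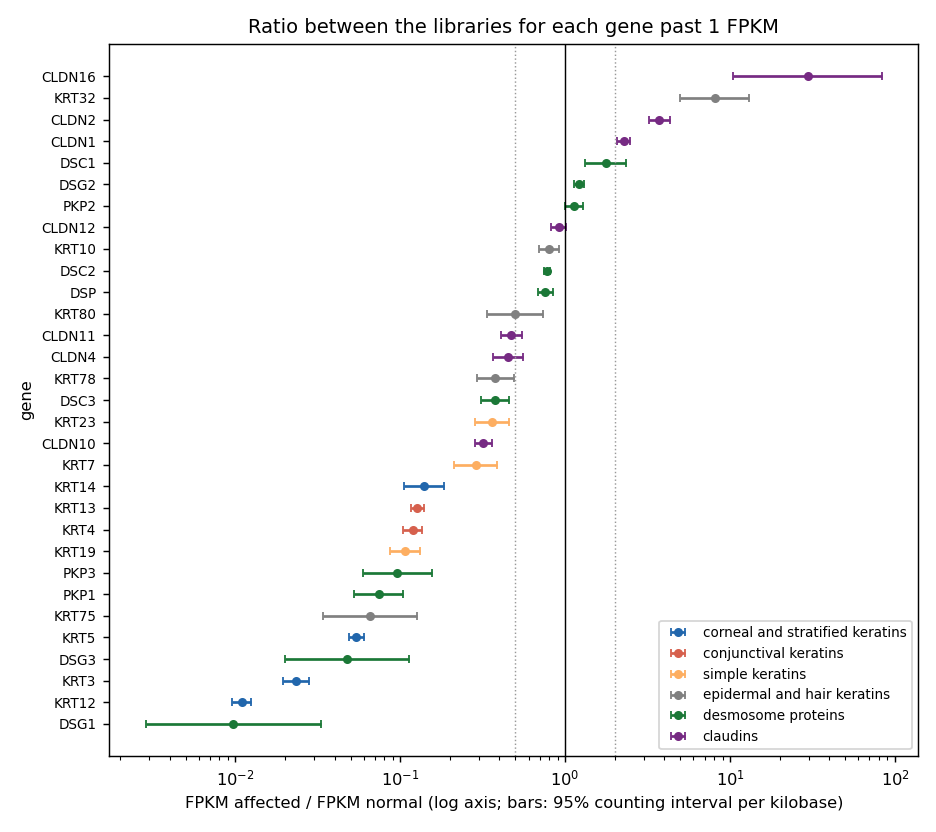
Ratio of FPKM in the affected to FPKM in the normal library (log axis) for the 31 genes with at least 1 FPKM in either, coloured by class. Bars are 95% counting intervals for 1 kilobase of effective transcript length, the solid line marks equal levels and dotted lines mark 2-fold; DSG1, KRT12 and KRT3 lie lowest and CLDN16, KRT32 and CLDN2 highest.

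Other genes of epithelial cells were examined in 6 lists of 67 genes, of which 56 were found under a single name and 39 passed 1 FPKM. Across the lists 10 of the 39 were at least 2-fold lower and 4 at least 2-fold higher, where 8.75% and 8.14% of all loci were. Hemidesmosomes fix basal cells to their basement membrane, and 3 of their 6 genes past the minimum were at least 2-fold lower, of which LAMB3, with 2.97 and 0.796 FPKM and named after its values were seen, passed through the normal library alone. COL17A1, the transmembrane collagen of hemidesmosomes, was listed at 27.1 FPKM in the normal cat and 1.49 FPKM in the affected cat, an 18.1-fold difference close to that of KRT5. ITGA6 was listed at 26.4 and 13.6 FPKM, and the tetraspanin CD151, which many cells carry, at 95.04 and 108.5 FPKM.

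Among 10 epithelial transcription and splicing factors past the minimum, 5 were at least 2-fold lower and none at least 2-fold higher, where 8.75% and 8.14% of all loci were. ELF3, an epithelial ETS factor, was listed at 6.93 and 1.66 FPKM and KLF4 at 10.5 and 5.35 FPKM. Among the 5, TP63, which maintains basal cells of stratified epithelia, at 3.88 and 0.511 FPKM, and the splicing factor ESRP1, at 1.955 and 0.0368 FPKM, passed the minimum through the normal library alone. Both stand outside the rule for naming genes and were named after their values were seen. The median log2 ratio of the list was −0.95.

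Counts of other junction genes, which are not confined to stratified epithelia, were near the shares of all loci, 8.75% lower and 8.14% higher. Of 8 further desmosome and adherens junction genes, 1 was at least 2-fold lower, CDH1 with 10.1 and 3.96 FPKM, and none was at least 2-fold higher. CTNNB1 was listed at 252.4 and 162.7 FPKM, CTNNA1 at 87.9 and 79.1 FPKM and PERP at 63.3 and 62.4 FPKM. Of 9 further tight junction genes, 1 was at least 2-fold higher, TJP3 with 3.23 and 9.20 FPKM, and none was at least 2-fold lower. CDH1 and TJP3 stand outside the rule for naming genes and were named for their values. The scaffold protein TJP1 was near level at 19.7 and 21.9 FPKM, and F11R was listed at 34.1 and 17.4 FPKM.

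Mucin and goblet cell genes past 1 FPKM were mixed in direction, and the cornified envelope genes past it were higher in the affected library. Of 9 mucin and goblet cell genes listed, 3 passed 1 FPKM. MUC15 was listed at 3.60 FPKM in the normal cat and 0.669 FPKM in the affected cat and MUC1 at 2.02 and 1.29 FPKM, whereas TFF1 was listed at 0 in the normal cat and 3.66 FPKM in the affected cat. Of 9 cornified envelope genes listed, 3 passed 1 FPKM and 2 were at least 2-fold higher, S100A8 at 9.62 and 27.0 FPKM and S100A9 at 2.44 and 19.5 FPKM, where 8.14% of all loci were that much higher. Both are also made in quantity by neutrophils and monocytes. SCEL was listed at 2.49 and 4.22 FPKM.

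Markers of other ocular cell types differed between the libraries as well, and their counts stand against 8.75% of all loci at least 2-fold lower and 8.14% higher. The corneal stroma list, which shares ALDH3A1 with the corneal epithelium list, was at least 2-fold lower in the affected library for 4 of 4 genes listed, with a summed level of 1905 FPKM in the normal cat and 177.2 FPKM in the affected cat. LUM was listed at 479.5 and 15.6 FPKM and DCN at 685.6 and 82.2 FPKM. The corneal and conjunctival epithelium list, of which 6 of 8 genes are keratins described above, summed to 1064 and 103.4 FPKM, and the 4 corneal endothelium genes to 219.8 and 126.4 FPKM. No gene of these 3 lists was listed at 0. The genes of the corneal stroma and epithelium lists were thus low together in the affected library. Whether cornea or the neighbouring sclera carried the stroma genes was not tested. The part of this in the keratin values was not tested either.

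The other marker lists differed in direction. The 7 ciliary epithelium genes listed summed to 1760 FPKM in the normal cat and 5113 FPKM in the affected cat, so the ciliary body named in the dissection was represented in both. The 5 lens genes summed to 16433 and 24246 FPKM, and the 4 photoreceptor genes to 260.1 and 1261 FPKM. Their median log2 ratios were 1.43, 1.37 and 2.13. The 5 retinal pigment epithelium genes summed to 750.8 and 1282 FPKM, most of it TTR at 504.6 and 990.6 FPKM, while RPE65 was listed at 53.2 and 26.1 FPKM and the median was −0.30. The 5 trabecular meshwork genes summed to 667.9 and 460.8 FPKM, but 3 of them were at least 2-fold higher and the median was 1.005, since the sum was set by MGP at 454.9 and 52.9 FPKM. The vascular endothelium genes, of which 3 of 5 were at least 2-fold lower, summed to 97.8 and 37.5 FPKM with a median of −1.70. The myelin genes summed to 78.6 and 81.9 FPKM with a median of −0.99. No marker of these lists was listed at 0 either. Which of these tissues carried DSG2, DSC2, PKP2 and the claudins was not tested.

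**Figure D5:**
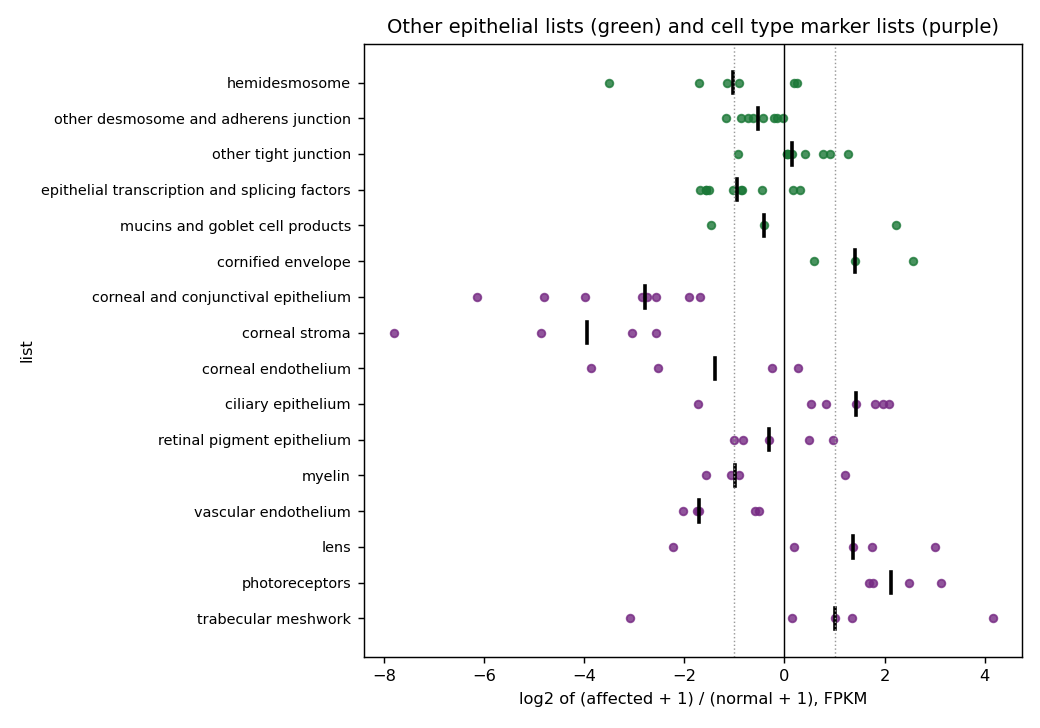
Log2 of (affected + 1) over (normal + 1) in FPKM for each gene past 1 FPKM in either library, in 6 other epithelial lists (green) and 10 lists of cell type markers (purple), with a black bar at each median and dotted lines at 2-fold. The corneal stroma and epithelium lists lie lowest, while photoreceptor and ciliary epithelium medians lie above 0.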

How the data were processed

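Polyadenylated RNA of 1 normal and 1 affected cat was profiled by the authors on the HiSeq system. Per the labels and the paper's methods, TopHat 2.0.9 aligned the reads to felCat5, guided by Ensembl gene models, and the authors calculated the deposited FPKM per locus with Cufflinks 2.1.1 and cummeRbund. Scaling between libraries and filters on loci are not given in the sources used here. Neither a count model nor a p-value was used, given FPKM and 1 library per condition.

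Log2 ratios used FPKM as deposited with a pseudocount of 1, which understates differences of low genes, for loci that reached 1 FPKM in either library; at least 2-fold was the limit for counts. The value of 1 fragment was recovered from unnamed loci of 400 to 2000 bases, where 97.8% of 3490 low values in the normal and 97.4% of 3350 in the affected library lay within 0.03 of a whole number of fragments. Values were thus scaled to about 71150000 and 67650000 fragments, and 3 fragments per kilobase correspond to 0.0422 and 0.0443 FPKM. No fold was given for a gene listed at 0 in 1 library, whatever its level in the other. The step was tested on simulated data.

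Genes, classes and lists were chosen with earlier results of these data known. Named by rule were all members past 1 FPKM, 10 keratins fixed by name, and the 3 genes with the highest mean in each epithelial list. Some genes outside this rule were named as well. They are LAMB3, TP63, ESRP1, CDH1 and TJP3, several members below 1 FPKM and single cell type markers. Values of some single genes are not reported here. Rows that join names were left out. Calculations ran in Python 3.11.15 (pandas 2.3.3, numpy 2.4.6), and plots in matplotlib 3.10.9. Alternatives were another pseudocount, 2 rescalings, other minimums, a 4-fold limit and other treatments of repeated, joined and zero rows.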

Additional observations from a re-analysis of the deposited data

How the results depend on the processing

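Counts of genes at least 2-fold lower and higher were 16 and 4, became 8 and 0 with a 4-fold limit, became 7 and 2 where the minimum was a mean of 5 FPKM, which leaves 16 genes, and stayed between 13 and 19 and at 4 otherwise. Values of single genes moved beyond counting error for 22 of the 31 named with a pseudocount of 0.1 and for 11 of 31 with rescaling to a summed FPKM of 1000000, and most other settings change which genes are counted and not their values. With a pseudocount of 0.1 the median log2 ratios were −1.37 for all genes, −4.77 for corneal and stratified, −3.00 for conjunctival, −1.69 for simple and −0.89 for epidermal and hair keratins. With no minimum they were −0.097 for all genes, −2.95 for corneal and stratified keratins, −0.011 for epidermal and hair keratins and −0.37 for desmosome proteins, since genes near 0 in both libraries enter. Under that minimum of 5 FPKM they were −0.64, −4.80 for corneal and stratified keratins, −2.55 for simple keratins and −0.10 for desmosome proteins. With the libraries rescaled to a summed FPKM of 1000000 the corneal and stratified median was −4.11, because KRT17 then passed the minimum. With joined names added it was −3.99, and that of desmosome proteins −0.37. Removal of genes that share their span with another locus, chosen after seeing the data, gave −4.80 for corneal and stratified keratins and 1.10 for claudins, against −0.12 with them, since CLDN4 and CLDN12 leave the list. The 16.0-fold difference of the summed keratins became 14.8-fold with the joined row of KRT15 and KRT16 and 3.51-fold with the 2 unnamed loci beyond KRT78 added, also chosen after seeing the data. No paired analysis was possible because there is a single library of each kind. One library per condition limits all values, and counting error limits those of DSG1, DSG3 and CLDN16.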

Other observations

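A row that joins KRT15 and KRT16 was listed at 86.1 FPKM in the normal cat and 9.15 FPKM in the affected cat, a 9.42-fold difference. KRT15 is a keratin of basal and limbal cells and KRT16 one of stressed epidermis, and the row does not separate them. A row that joins CLDN19 and LEPRE1 was listed at 94.1 and 74.5 FPKM. A row that joins PKP4 with an Ensembl identifier was listed at 72.9 and 87.1 FPKM. The second row of CLDN12 was listed at 1.48 and 1.26 FPKM.

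Just beyond KRT78 on chromosome B4, before EIF4B, lie 2 loci that carry an Ensembl identifier and no symbol. ENSFCAG00000000298, at 81809262 to 81816771, was listed at 120.3 FPKM in the normal cat and 161.6 FPKM in the affected cat. ENSFCAG00000000299, at 81848539 to 81852894, was listed at 13.9 and 14.7 FPKM. Both are near level, in contrast to KRT3, KRT4 and KRT5 on the same chromosome. The deposited table does not pair these identifiers with names. In RefSeq's annotation of another cat assembly, KRT8 and KRT18 lie between KRT78 and EIF4B. A further 9 loci with an identifier alone lie among the keratins of this chromosome, none above 0.623 FPKM.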
